A study of Mus musculus with 18 samples.

Results

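The input RNA of axoplasm from sciatic nerve was set against that from dorsal root in C57B6 mice, in 6 of the 18 libraries of a study of RNA bound by the kinesin heavy chain Kif5A. The 6 libraries were chosen by their labels as input, 3 for each tissue, and the other 12 were precipitates with an antibody to Kif5A or with IgG, the isotype control, from the same lysates. Per the labels, each of the 3 biological repeats pooled nerves and roots of the same 5 mice, and no animal carried a treatment or a mutant allele. Enriched axoplasm here means the supernatant left after whole pieces of nerve or root were ground in buffer and spun, so it can hold RNA of any cell in the tissue and not of axons alone. Neither age nor sex of the mice is stated in the sources used here, and because each library mixes 5 animals the spread between single animals cannot be seen.

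Both tissues hold axons of the same sensory neurons at different distances from their cell bodies in the dorsal root ganglion. The dorsal root runs inside the spinal canal to the cord, within a covering of meninges, and near the cord its Schwann cells give way to the astrocytes and oligodendrocytes of the central nervous system. The sciatic nerve lies in the leg and also carries motor and sympathetic axons. It is wrapped in a perineurium of flattened cells and in an epineurium of collagen, fibroblasts, fat, blood vessels and mast cells, and runs between skeletal muscles.

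Levels are CPM, the counts of a gene relative to all counts of its library scaled by TMM factors, and log2 fold changes are sciatic nerve minus dorsal root throughout. Counts of the 16878 named transcripts listed for both tissues were summed to 12697 genes, of which 12215 were expressed enough to be tested. Total counts ran from 12256188 to 20249552 in sciatic nerve and from 16270677 to 20022870 in dorsal root. Sciatic nerve replicate 3 stood apart from its group: over the genes tested its log2 levels correlated at 0.896 and 0.882 with replicates 1 and 2, which correlated at 0.975 with each other, while the 3 dorsal root libraries correlated at 0.957 to 0.975. Fth1, the heavy chain of the iron store ferritin, alone took 7.17%, 6.29% and 14.2% of the sciatic nerve counts and 20.7%, 19.3% and 15% of the dorsal root counts. Nuclear-retained RNAs, nearly all Malat1, summed to 11748, 16856 and 2147 CPM in sciatic nerve and 15628, 8120 and 2648 CPM in dorsal root, so replicate 3 was low in both tissues. What part these differences between libraries have in the results was not tested.

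In edgeR's quasi-likelihood test, 285 genes were higher in sciatic nerve (2.33% of those tested) and 218 in dorsal root (1.78%) at a Benjamini-Hochberg adjusted p under 0.05, and 1781 genes had an unadjusted p under 0.05. Of these, 61 genes higher in sciatic nerve and 74 higher in dorsal root differed more than 10-fold. The median over all genes tested was 0.056 on the log2 scale. The number of calls depended on each library. It was 298, 335 and 2538 without sciatic nerve replicate 1, 2 or 3 and 228, 220 and 279 without dorsal root replicate 1, 2 or 3. All 503 genes, 4.12% of those tested, were among the 2538 of 12330 called without sciatic nerve replicate 3. Counts of calls on gene lists below are to be read beside these shares. Of the 503, 205 remained called whichever single library was left out, as did 112 of the 135 that differed more than 10-fold. Below, a gene is said to hold when it was called in all 6 of these fits. Other fits do not enter this term, and some genes that hold lost their call in them, as given at the end.

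**Figure D1:**
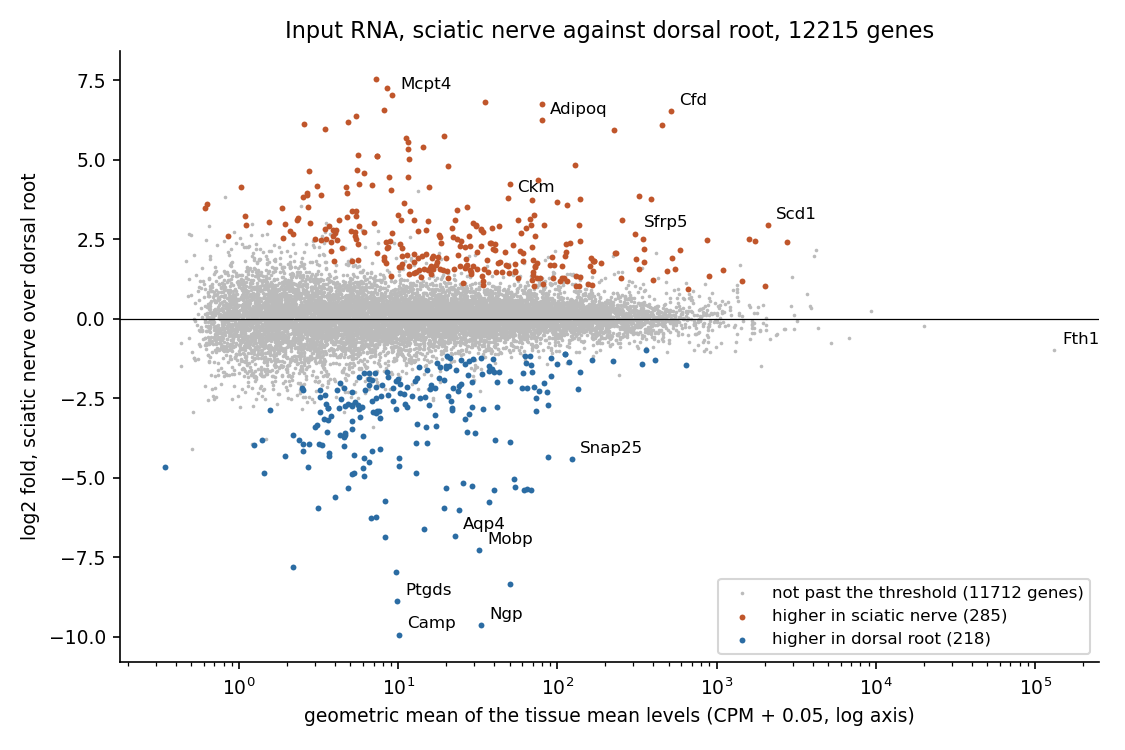
Log2 fold change of sciatic nerve over dorsal root (vertical) against the geometric mean of the tissue mean levels in CPM + 0.05 (horizontal, log axis) for the 12215 genes tested, with 1 point for each gene and called genes in colour. The 285 genes higher in sciatic nerve and the 218 higher in dorsal root lie on both sides of a dense band of genes near 0, and Fth1 lies farthest right, uncalled.

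Genes of fat cells were far higher in sciatic nerve. Of 8 adipocyte genes tested 7 were higher there and none lower, with a median log2 fold change of 6.17, and 6 of the 7 held. Adipoq (chromosome 16, 23146536 to 23158028), the hormone adiponectin, stood at 801, 1006 and 284 CPM in sciatic nerve and 11.9, 6.92 and 8.46 CPM in dorsal root, a 76.5-fold difference (log2 6.26, SE 0.54, adjusted p = 0.000317). Sciatic nerve replicate 3 had the least Adipoq of its group and far more than any dorsal root library. The naming rule asks for groups that do not overlap, which was the case for 21.3% of all genes tested. Lep (chromosome 6, 29060220 to 29073877), the satiety hormone leptin, had 57.1, 59.7 and 26.5 CPM against 0.815, 0.397 and 0.480 CPM, 83.0-fold (log2 6.37, SE 0.50, adjusted p = 0.000186). Retn, the hormone resistin, was 113-fold higher, Cfd, the complement protease adipsin, 93.4-fold, Car3, a carbonic anhydrase, 68.0-fold and Fabp4, a fatty acid carrier, 62.0-fold. All 4 held. Lpl, the lipase that frees fatty acids from lipoproteins, was 14.7-fold higher (adjusted p = 0.00701) but was not called without dorsal root replicate 1 (adjusted p = 0.0595) or replicate 3 (adjusted p = 0.0646). The remaining member tested, Cidea, a lipid droplet protein of brown fat, had 3.43, 1.88 and 5.30 CPM against 2.50, 2.44 and 3.24 CPM.

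The summed level of the adipocyte list was 15196, 17641 and 5641 CPM in sciatic nerve and 277, 271 and 162 CPM in dorsal root. Replicate 3 was lowest in both groups. In bulk RNA such as this, fewer cells of a type and less RNA per cell cannot be told apart. The enzymes of fatty acid and triglyceride synthesis gave 6 higher and 0 lower of 18 tested, and the count was 3, 3, 10, 3, 3 and 5 when sciatic nerve replicates 1 to 3 and then dorsal root replicates 1 to 3 were left out in turn. The 10 without sciatic nerve replicate 3, of 19 then tested, were 6 higher in sciatic nerve and 4 higher in dorsal root, namely Elovl1, Elovl6, Elovl7 and Fads2, which lengthen or desaturate fatty acids. Fads2 was also called under the replicate block (adjusted p = 0.0461). Thrsp, a regulator of lipid synthesis, had 341, 453 and 232 CPM against 17.4, 18.7 and 14.04 CPM, 20.5-fold (log2 4.36, SE 0.33, adjusted p = 0.000154). Scd1, the desaturase that makes oleic acid, was 7.72-fold higher and Dgat2, which closes triglyceride synthesis, 7.29-fold. These 3 held. None of 19 genes of cholesterol synthesis was called by edgeR or limma-voom, 1 was by DESeq2 and 1 had an unadjusted p under 0.05. Hmgcs1, an early enzyme of the pathway, had 1673, 1572 and 1476 CPM against 1684, 1706 and 1837 CPM (adjusted p = 0.839). Without sciatic nerve replicate 3, 6 of the 19 were called, all higher in dorsal root.

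**Figure D2:**
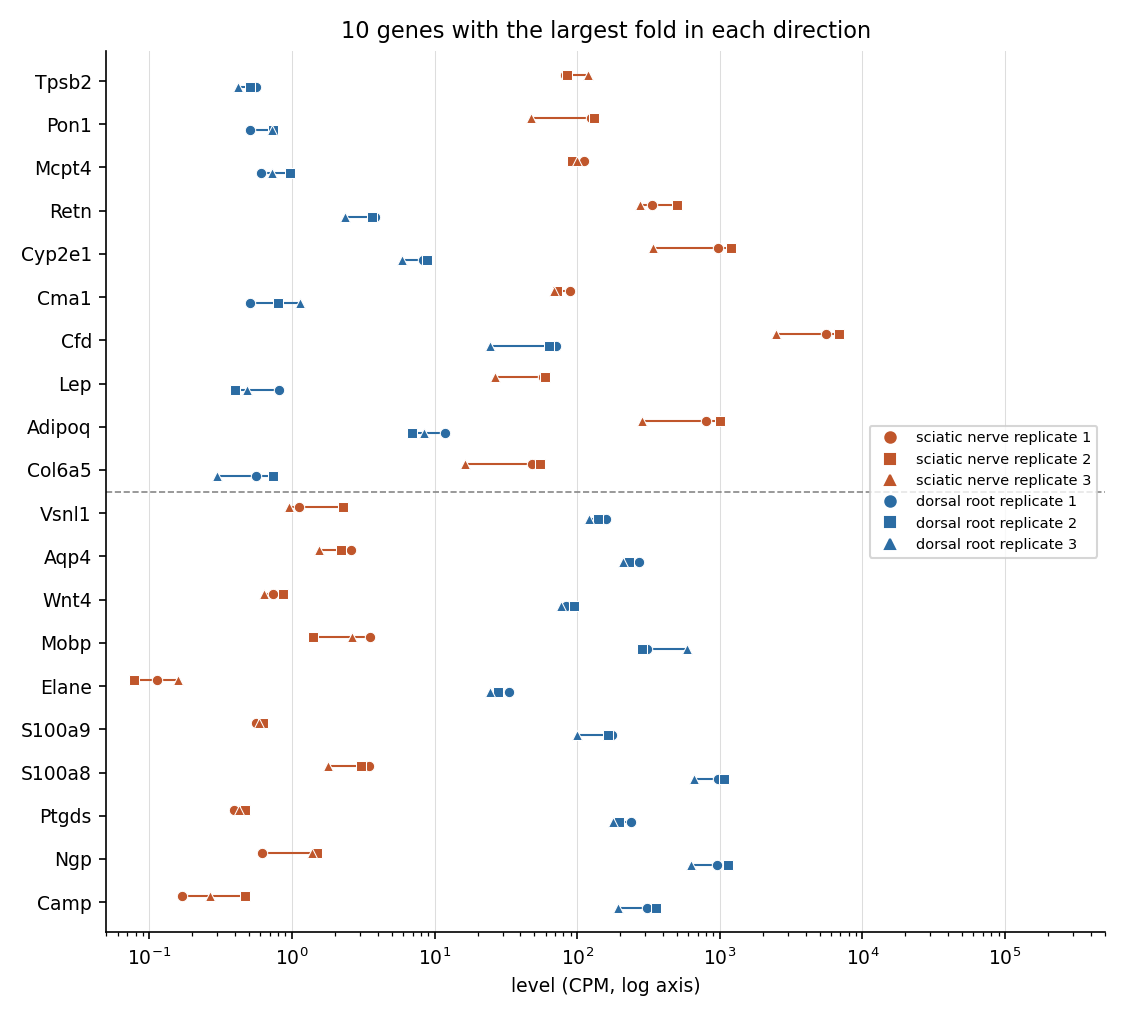
Level in CPM (horizontal, log axis) in each of the 6 input libraries for the 10 genes with the largest fold change in each direction, taken by the naming rule. Symbols mark the replicates and lines span each group. The naming rule took only genes whose groups did not overlap. Replicate 3 of sciatic nerve lay lowest of its group for Adipoq, Cfd, Lep, Pon1 and Cyp2e1 but highest for Tpsb2.

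Proteases of mast cells were far higher in sciatic nerve. Of 6 mast cell genes tested 4 were higher in sciatic nerve and none lower, and all 4 held. Tpsb2 (chromosome 17, 25366305 to 25369098), a tryptase stored in mast cell granules, had 82.3, 84.4 and 119.8 CPM in sciatic nerve and 0.560, 0.510 and 0.420 CPM in dorsal root, 189-fold (log2 7.56, SE 0.36, adjusted p = 1.32e-05). Mcpt4 (chromosome 14, 56059629 to 56062313), a chymase, had 111, 92.5 and 100.1 CPM against 0.611, 0.964 and 0.720 CPM, 132-fold. Unlike the fat genes, these proteases were not low in sciatic nerve replicate 3. The chymase Cma1 was 94.5-fold higher and the carboxypeptidase Cpa3 25.9-fold. Fcer1a, a chain of the IgE receptor, had 3.77, 2.11 and 4.40 CPM against 0.407, 0.397 and 3.18 CPM, and Hdc, which makes histamine, had 2.53, 1.88 and 2.65 CPM against 5.14, 4.99 and 2.22 CPM. Neither of these 2 was called, and their groups overlapped. The summed list was at 326, 280 and 315 CPM in sciatic nerve and 7.54, 8.51 and 9.72 CPM in dorsal root.

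Skeletal muscle genes were higher in sciatic nerve as well, with 7 of 10 tested called higher, none lower and 5 that held. Ckm (chromosome 7, 19404776 to 19422841), the muscle creatine kinase, had 148, 182 and 222 CPM against 15.5, 10.3 and 13.5 CPM, 14.02-fold (log2 3.81, SE 0.29, adjusted p = 0.000156). Acta1, the skeletal actin, was 7.70-fold higher, the myosin light chain Mylpf 8.89-fold, troponin C of fast muscle, Tnnc2, 12.5-fold and the calcium pump Atp2a1 8.41-fold. Myh4 and Actn3, both of fast fibres, were 6.78-fold and 6.997-fold higher and were not called without dorsal root replicate 2 (adjusted p = 0.113 and 0.0717), dorsal root replicate 3 (0.068 and 0.0802) or sciatic nerve replicate 1 (0.0549 and 0.0644). Actn3 also dropped out without sciatic nerve replicate 2 (adjusted p = 0.106) and dorsal root replicate 1 (adjusted p = 0.176). Summed over the list, muscle RNA stood at 905, 1054 and 890.0 CPM in sciatic nerve and 169, 131 and 113 CPM in dorsal root.

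Connective tissue sheaths are given by layer. Of 12 epineurial fibroblast genes tested 6 were higher in sciatic nerve and none lower, with a median log2 fold change of 1.29, and 5 held. Without sciatic nerve replicate 3 there were 8 calls, 7 higher in sciatic nerve and Fmod higher in dorsal root. Sfrp2, a secreted Wnt inhibitor, had 111, 113 and 53.9 CPM against 2.44, 2.67 and 1.38 CPM, 42.6-fold (log2 5.41, SE 0.44, adjusted p = 0.00021). Its relative Sfrp4 was 11.9-fold higher, the matrix protein Thbs4 12.8-fold, the collagen-processing protein Pcolce2 5.77-fold and Clec3b, which binds plasminogen, 3.62-fold. The matrix protein Tnxb was 2.53-fold higher (adjusted p = 0.0411) and was called without sciatic nerve replicate 3 but not without any of the other 5 libraries (adjusted p = 0.0631 to 0.225). Endoneurial fibroblast genes gave 3 higher and 0 lower of 10 tested, of which none held. There were 8 calls without sciatic nerve replicate 3, 7 higher in sciatic nerve and Apod higher in dorsal root.

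Perineurial genes gave 4 higher and 1 lower of 12 tested, and the count was 9 without sciatic nerve replicate 3, of which 8 were higher in sciatic nerve, and 8 with the replicate number as a block. Sfrp5 (chromosome 19, 42197971 to 42202252), another Wnt inhibitor, had 795, 874 and 667 CPM against 122, 106 and 135 CPM, 6.44-fold (log2 2.69, SE 0.23, adjusted p = 0.000288). Msln, the surface protein mesothelin, was 8.13-fold higher and Ntn4, a netrin, 7.74-fold. The exception was Gjb2, a connexin of gap junctions, with 9.85, 12.9 and 3.76 CPM in sciatic nerve and 115, 117 and 82.0 CPM in dorsal root, 11.9-fold higher in dorsal root (log2 -3.57, SE 0.45, adjusted p = 0.00238). These 4 held, while Lypd2, 2.47-fold higher (adjusted p = 0.0246), was called in no fit that left out a library other than sciatic nerve replicate 3 (adjusted p = 0.0886 to 0.164).

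Collagens were higher in sciatic nerve for 9 of 25 genes tested and lower for none, with a median log2 fold change of 1.33. Leaving out sciatic nerve replicates 1 to 3 and then dorsal root replicates 1 to 3 in turn gave 6, 7, 19, 4, 3 and 5. The 19 were 16 higher in sciatic nerve and 3 higher in dorsal root, Col4a6, Col8a2 and Col9a2. Col1a1 (chromosome 11, 94936224 to 94953042), a chain of fibrillar collagen I, had 1283, 1693 and 761 CPM against 279, 259.7 and 289 CPM, 4.51-fold (log2 2.17, SE 0.31, adjusted p = 0.00423). Col5a1 and Col5a3, chains of collagen V, were 3.70-fold and 3.58-fold higher, and these 3 held. Col6a5, a chain of collagen VI outside the list, had 48.6, 54.8 and 16.2 CPM against 0.560, 0.737 and 0.300 CPM, 73.5-fold. Fibrillin-1, encoded by Fbn1, was 5.21-fold higher (adjusted p = 0.0104) and was not called without dorsal root replicate 1, 2 or 3 (adjusted p = 0.0853, 0.0684 and 0.0801). Laminins and other matrix genes gave 2 higher and 2 lower of 26 tested, 7 calls under the replicate block and, without sciatic nerve replicate 3, 14 higher and 4 lower. In the lower direction, Lamc3, a laminin chain, was 7.22-fold and Bcan, the brain proteoglycan brevican, 13.0-fold higher in dorsal root. Both held.

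Single genes of other cells completed the sciatic nerve side. Slc6a2 (chromosome 8, 92960079 to 93001667), the noradrenaline transporter of sympathetic axons, had 20.3, 12.9 and 6.67 CPM against 0.611, 0.510 and 0.420 CPM, 25.4-fold (log2 4.67, SE 0.55, adjusted p = 0.0016). It was the 1 called of 4 sympathetic genes tested, of which 2 had a positive log2 fold change. Under the replicate block or without sciatic nerve replicate 3 a further gene, the neuropeptide Npy, was called higher in dorsal root (adjusted p = 0.0395 with the block). Th and Dbh, the enzymes that make noradrenaline, were not analysed here. The smooth muscle actin Acta2 had 124, 119 and 124 CPM against 26.3, 23.99 and 33.2 CPM, 4.39-fold. Pon1, an esterase carried by lipoproteins, was 153-fold higher, the cytochrome P450 enzyme Cyp2e1 108-fold, Adig, a small protein of fat cells, 70.0-fold, Tmem45b 53.8-fold and the esterase Ces1d 52.1-fold. The 7 genes named in these sentences with a fold held.

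**Figure D3:**
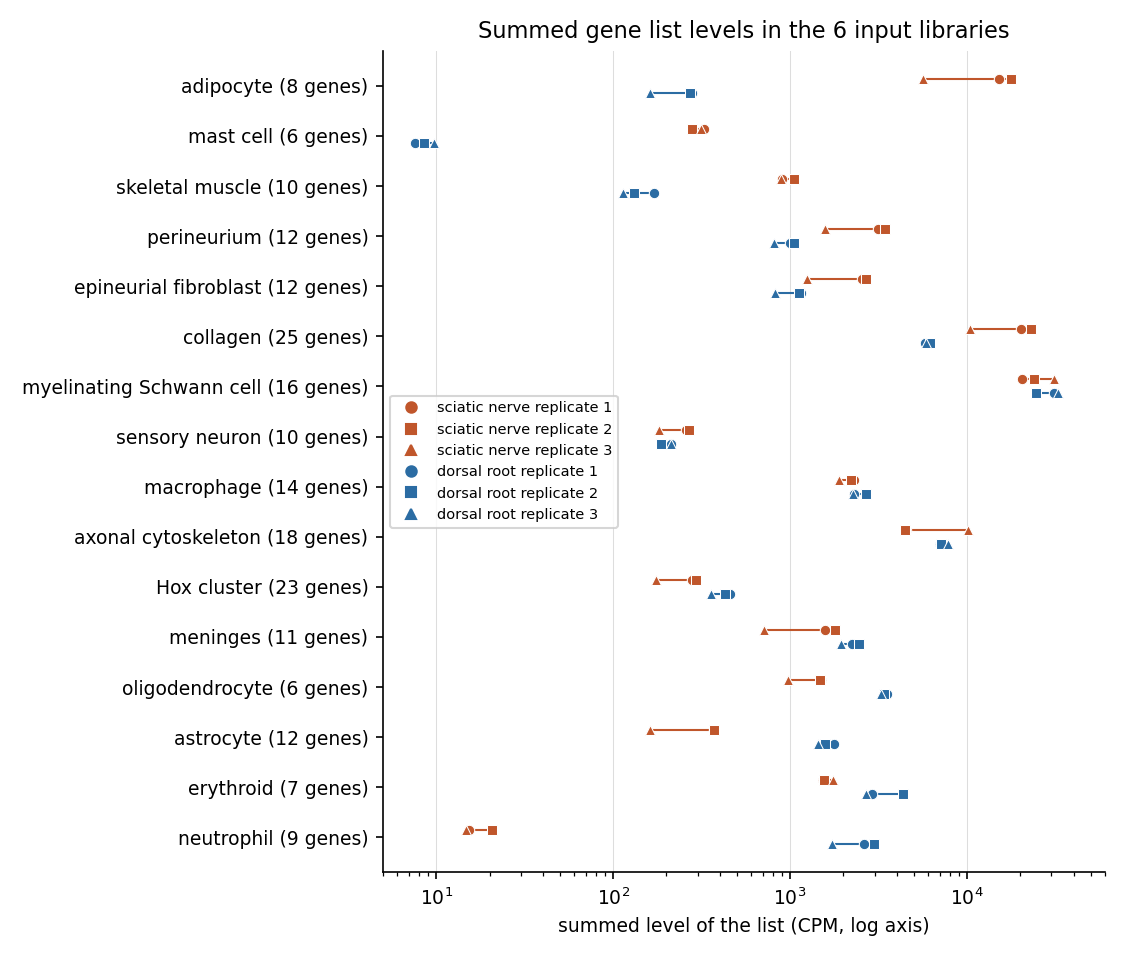
Summed level of 16 gene lists in CPM (horizontal, log axis) in each of the 6 input libraries, with the number of genes summed after each name. Symbols mark the replicates and lines span each group. The groups stood apart widely for the adipocyte, mast cell, muscle, astrocyte and neutrophil lists and overlapped for those of myelinating Schwann cells, sensory neurons and the axonal cytoskeleton.

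On the dorsal root side, the largest fitted fold of all called genes was that of Camp, a gene of neutrophil granules. Of 9 neutrophil genes tested 6 were higher in dorsal root and none in sciatic nerve, with a median log2 fold change of -7.81, and all 6 held. Camp (chromosome 9, 109847379 to 109849617), the antimicrobial cathelicidin, had 0.169, 0.469 and 0.265 CPM in sciatic nerve and 310.4, 359 and 192 CPM in dorsal root, 973-fold (log2 -9.93, SE 0.49, adjusted p = 1.38e-05). Ngp (chromosome 9, 110419747 to 110423012), neutrophilic granule protein, had 0.619, 1.49 and 1.38 CPM against 949, 1148 and 624 CPM, 785-fold (log2 -9.62, SE 0.48, adjusted p = 1.39e-05). All 3 dorsal root libraries were high in both genes, with replicate 3 the lowest. S100a8 and S100a9, which pair as calprotectin, were 323-fold and 246-fold higher, Elane, the elastase made by immature neutrophils in bone marrow, 224-fold and Retnlg 61.0-fold. Elane rested on 6 counts in the 3 sciatic nerve libraries together. Cxcr2, the chemokine receptor of circulating neutrophils, had 3.21, 5.32 and 0.583 CPM against 18.8, 15.5 and 7.14 CPM and was not called (adjusted p = 0.163, and 0.0154 with the replicate number as a block). Without sciatic nerve replicate 3 all 9 were called, and with the replicate block 8.

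The summed neutrophil list was at 15.3, 20.7 and 14.8 CPM in sciatic nerve and 2627, 2986 and 1733 CPM in dorsal root. Red cell genes were higher in dorsal root too, with 4 of 7 tested called, 7 without sciatic nerve replicate 3 and 2 that held, among them Slc4a1, the band 3 anion exchanger, 53.2-fold. Slc4a1 had 0.394, 1.56 and 1.38 CPM against 55.6, 67.6 and 53.0 CPM. Hbb-bt and Hba-a2, a beta and an alpha globin with close copies whose reads the counting could split, were 2.67-fold and 2.52-fold higher (adjusted p = 0.0241 and 0.0354). Both lost the call without sciatic nerve replicate 1 (0.0683 and 0.111), dorsal root replicate 1 (0.093 and 0.181) or dorsal root replicate 2 (0.146 and 0.198), Hbb-bt also without dorsal root replicate 3 (0.0503) and Hba-a2 also without sciatic nerve replicate 2 (0.0506). Lymphocyte genes gave 3 calls of 6 tested, all higher in dorsal root, and none held. Leaving out sciatic nerve replicate 3 gave 5, 4 higher in dorsal root and Ighm higher in sciatic nerve. Of the 3, Cd3g of T cells, Cd79a of B cells and Nkg7 of cytotoxic cells were 6.76-fold, 6.55-fold and 4.56-fold higher (adjusted p = 0.0192, 0.0196 and 0.00893). Cd3g was not called without dorsal root replicate 1 or 2 (adjusted p = 0.106 and 0.116), nor Cd79a without those 2 (0.106 and 0.12), sciatic nerve replicate 2 (0.0573) or dorsal root replicate 3 (0.054). Nkg7 missed the threshold without dorsal root replicate 3 (adjusted p = 0.05003).

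Bone and cartilage markers gave 0 calls among 5 tested with edgeR, DESeq2 and limma-voom, with 1 at an unadjusted p under 0.05. Leaving out sciatic nerve replicate 3 gave 3, Col11a1 and Ctsk higher in sciatic nerve and Scx higher in dorsal root, with a sign that turned without other libraries. A further 5 were listed for dorsal root alone, Ibsp of bone at 9.83, 7.09 and 3.06 CPM being the most abundant of them, and 2 for sciatic nerve alone, Cilp at 37.9, 46.2 and 12.6 CPM and Acp5 at 0.675, 1.25 and 0.371 CPM. Whether cells of other tissues had a part in the neutrophil and red cell RNA was not tested.

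Factors of the C/EBP family act in the making of both neutrophils and fat cells, and bind DNA elements related to TTGCNNAA. The promoters of the members of these 2 lists were therefore read for that element, and those of the mast cell list as well. The 250 bases before the start of each gene were taken from RefSeq promoters of build GRCm38.p6, with the most upstream start where a gene has several, and searched on both strands, TTGCNNAA and its reverse complement TTNNGCAA. Among 10 neutrophil genes whose promoter was listed, 5 held the element (50%), among 8 adipocyte genes 2 (25%) and among 8 mast cell genes 1 (12.5%). The share was 7.37% of the 8614 genes tested that had a promoter there and 9.55% of all 27025 promoters. Among called genes it was 13.5% of 185 higher in sciatic nerve and 7.36% of 163 higher in dorsal root. The 4 promoters below, chosen after the search as examples with the element, show it in capitals, read 5′ to 3′ on the strand of the gene. Ngp lies at chr9:110419558-110419807 on the plus strand, Ltf at chr9:111019042-111019291 on the plus strand, Lep at chr6:29059971-29060220 on the plus strand and Plin1 at chr7:79732777-79733026 on the minus strand.
Ngp: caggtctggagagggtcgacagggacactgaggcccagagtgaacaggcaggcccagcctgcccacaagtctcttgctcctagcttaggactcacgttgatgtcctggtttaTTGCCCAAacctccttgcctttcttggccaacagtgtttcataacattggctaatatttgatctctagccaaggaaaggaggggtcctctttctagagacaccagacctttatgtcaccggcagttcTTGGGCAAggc
Ltf: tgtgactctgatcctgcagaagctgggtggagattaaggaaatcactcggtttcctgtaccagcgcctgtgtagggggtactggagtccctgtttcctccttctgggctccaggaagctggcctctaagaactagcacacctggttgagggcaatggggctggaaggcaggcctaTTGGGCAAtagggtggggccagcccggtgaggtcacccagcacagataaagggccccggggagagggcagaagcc
Lep: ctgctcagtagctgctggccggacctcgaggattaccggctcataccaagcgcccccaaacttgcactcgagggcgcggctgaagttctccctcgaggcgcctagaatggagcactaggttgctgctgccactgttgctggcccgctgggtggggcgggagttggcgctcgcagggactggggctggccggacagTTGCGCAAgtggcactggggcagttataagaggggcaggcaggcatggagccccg
Plin1: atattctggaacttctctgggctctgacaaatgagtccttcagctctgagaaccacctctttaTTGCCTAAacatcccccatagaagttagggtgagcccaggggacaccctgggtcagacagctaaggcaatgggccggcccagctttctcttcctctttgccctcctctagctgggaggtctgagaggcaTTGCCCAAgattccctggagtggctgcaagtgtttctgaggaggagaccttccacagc
The element began 138 and 11 bases before the RefSeq start in Ngp, 75 in Ltf, 55 in Lep and 187 and 58 in Plin1. That of Lep reads as the element on both strands at the same place. GENCODE M21 starts Ngp at 110419747 and Ltf at 111019271, inside the windows shown. By that annotation the last bases of these 2 windows, with the element of Ngp nearest the RefSeq start, lie within the gene. Camp, Elane, Adipoq and Cfd had none in this window, which says only that these letters are not there. A match is a description of the sequence and shows no binding. Cebpa, which encodes C/EBP alpha and was added after its values were seen, had 30.2, 31.7 and 22.4 CPM in sciatic nerve and 4.84, 5.84 and 10.6 CPM in dorsal root, 3.96-fold (log2 1.99, SE 0.37, adjusted p = 0.0194). It was not called without sciatic nerve replicate 1 or 2 (adjusted p = 0.0803 and 0.0679) or dorsal root replicate 1 or 2 (adjusted p = 0.118 and 0.142). Ltf, the granule protein lactoferrin, was listed for dorsal root alone, at 57.3, 66.9 and 68.6 CPM, and Plin1, the lipid droplet protein perilipin, for sciatic nerve alone, at 0.619, 2.50 and 0.477 CPM.

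Glia of the central nervous system formed the next group. Astrocyte genes were higher in dorsal root for 7 of 12 tested, none was called the other way, and all 7 held. Aqp4 (chromosome 18, 15389496 to 15410982), the water channel of astrocyte endfeet, had 2.59, 2.19 and 1.54 CPM in sciatic nerve and 272, 229.5 and 210.2 CPM in dorsal root, 113-fold (log2 -6.82, SE 0.33, adjusted p = 1.32e-05). Gfap, the intermediate filament of astrocytes that some Schwann cells also make, had 1.46, 1.64 and 5.67 CPM against 175, 149 and 253 CPM, 64.7-fold. A further Gfap transcript, listed for dorsal root alone at 166, 116 and 144 CPM, was outside these levels and this fold. No sciatic nerve library came near the dorsal root libraries in either gene. Both are among the genes taken for the largest folds, for which the naming rule asks for groups that do not overlap. That was the case for 21.3% of all genes tested. The neurotensin receptor Ntsr2 was 74.2-fold higher, the glutamate transporter Slc1a2 41.4-fold, the connexin Gjb6 38.6-fold, the glycolytic enzyme Aldoc 22.5-fold and angiotensinogen, Agt, 14.8-fold. Kcnj10, the potassium channel Kir4.1 of glia, had 7.93, 5.32 and 10.1 CPM against 114, 80.5 and 82.7 CPM, 11.9-fold, and held. Slc7a10, an amino acid transporter on the same list, leaned the other way with 11.4, 11.2 and 4.18 CPM against 3.11, 2.72 and 2.10 CPM (adjusted p = 0.0995). Without sciatic nerve replicate 3 Slc7a10 was called, higher in sciatic nerve.

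Oligodendrocyte genes were higher in dorsal root for 4 of 6 tested. Mobp (chromosome 9, 120149707 to 120181484), a protein of central myelin, had 3.55, 1.41 and 2.65 CPM against 307, 287 and 590.0 CPM, 154-fold (log2 -7.26, SE 0.50, adjusted p = 8.57e-05). Cldn11, the tight junction protein of central myelin, was 20.4-fold higher, with 17.7, 17.9 and 22.6 CPM against 477, 404 and 307 CPM. These 2 held. Anln, which encodes anillin, was 2.33-fold higher (adjusted p = 0.0315), and was called without sciatic nerve replicate 3 and not without any of the other 5 libraries (adjusted p = 0.0579 to 0.171). The other 9 genes of the list stood for dorsal root alone. Ermn, a cytoskeletal protein of oligodendrocytes, had 115, 119.7 and 89.9 CPM there, Mog, at the outer face of central myelin, 73.9, 72.6 and 51.2 CPM, and Opalin 16.2, 18.9 and 12.1 CPM. Without a value for sciatic nerve these 3 allow no comparison.

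Meningeal genes were higher in dorsal root for 5 of 11 tested, and all 5 held. Leaving out sciatic nerve replicate 3 gave 7 calls, 5 higher in dorsal root and Bgn and Tbx18 higher in sciatic nerve. Ptgds (chromosome 2, 25466709 to 25470046), which makes prostaglandin D2 and is abundant in leptomeninges, had 0.394, 0.469 and 0.424 CPM against 237, 197 and 178 CPM, 471-fold, with the smallest adjusted p of all genes (log2 -8.88, SE 0.33, adjusted p = 9.37e-06). Aldh1a2, which makes retinoic acid, had 15.1, 12.3 and 4.34 CPM against 443, 528 and 346 CPM, 41.6-fold, and the sulfate transporter Slc13a4 was 32.8-fold higher. The GABA transporter Slc6a13 and the retinoic acid carrier Crabp2 were 3.48-fold and 3.19-fold higher. The remaining 6 of the 11, among them Foxc1 and Foxd1, transcription factors of the mesenchyme around the brain, were not called. Zic1, a transcription factor of meninges and dorsal neural tube, was listed for dorsal root alone at 108, 135 and 78.1 CPM, and so was Igfbp2 at 46.6, 42.8 and 33.5 CPM. Wnt4, a secreted ligand outside the lists, had 0.732, 0.860 and 0.635 CPM in sciatic nerve and 83.3, 94.8 and 77.2 CPM in dorsal root, 115-fold, and held. Growth factors and cytokines gave 3 calls of 22 tested and 9 without sciatic nerve replicate 3, of which 7 were higher in dorsal root. The shares over all genes tested were 4.12% and, without that library, 2538 of 12330. Igf2 and Bmp6 were 7.16-fold and 4.29-fold higher in dorsal root and held. Gdf10 was 4.29-fold higher in sciatic nerve (adjusted p = 0.0445) and was not called without any library other than sciatic nerve replicate 3 (adjusted p = 0.121 to 0.222).

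Neuronal genes differed in part. Markers of sensory neurons gave 0 calls among 10 tested with edgeR, DESeq2 and limma-voom and 3 at an unadjusted p under 0.05, with a median log2 fold change of 0.18. Piezo2, a channel for touch, was the 1 called without sciatic nerve replicate 3, higher in sciatic nerve. Calca, the precursor of the pain peptide CGRP, had 25.4, 24.9 and 27.1 CPM in sciatic nerve and 14.97, 22.97 and 19.4 CPM in dorsal root (adjusted p = 0.57), and the receptor Ret 13.2, 10.7 and 12.02 CPM against 9.22, 6.35 and 10.2 CPM (adjusted p = 0.611). The sciatic nerve libraries lay above the dorsal root libraries in both, as they did for 10.6% of all genes tested, and neither gene was called. A further 6 markers of sensory neurons were listed for dorsal root alone, among them Calcb, Scn10a, Avil and Pou4f1 with means of 1.10, 0.802, 0.759 and 0.547 CPM there. Chat and Slc5a7, which mark motor neurons, had 0.916 and 4.42 CPM in dorsal root alone.

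Synaptic and vesicle genes were higher in dorsal root for 6 of 13 tested, none was called the other way, and 2 held. Snap25 (chromosome 2, 136713453 to 136782428), a core protein of vesicle fusion, had 26.3, 27.99 and 25.9 CPM against 576, 549 and 565 CPM, 21.05-fold (log2 -4.40, SE 0.23, adjusted p = 1.39e-05). The spread within each group was small beside that gap. The vesicle protein Sv2a was 75.8-fold higher, with 0.225, 1.33 and 0.741 CPM against 62.0, 53.9 and 53.5 CPM. Leaving out sciatic nerve replicates 1 to 3 and then dorsal root replicates 1 to 3 in turn gave 4, 5, 10, 2, 3 and 4 calls on this list. The 10 were 8 higher in dorsal root and 2 higher in sciatic nerve, Cpe and Cplx2. Elavl3, an RNA-binding protein of neurons, and Vsnl1, a neuronal calcium sensor, were 61.3-fold and 98.1-fold higher in dorsal root and held.

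Axonal cytoskeleton genes gave 4 higher in dorsal root and 0 higher in sciatic nerve of 18 tested. Nefl (chromosome 14, 68083863 to 68089095), the light neurofilament chain, had 15.7, 13.996 and 18.3 CPM against 114, 111 and 99.2 CPM, 6.76-fold (log2 -2.76, SE 0.24, adjusted p = 0.000317). The neuronal tubulin Tubb3 was 9.78-fold higher, with 4.78, 5.16 and 2.65 CPM against 41.7, 41.3 and 39.9 CPM, and Tubb4a, which oligodendrocytes also make, 4.62-fold. These 3 held. Nefm, the medium neurofilament chain, was 4.45-fold higher (adjusted p = 0.0161) and was not called without dorsal root replicate 1 or 2 (adjusted p = 0.101 and 0.0785). Not all axonal genes followed: Stmn2, a microtubule regulator of growing axons, had 105, 89.6 and 100.9 CPM against 86.9, 88.9 and 88.5 CPM (adjusted p = 0.838). Without sciatic nerve replicate 3, 9 of the 18 were called higher in dorsal root and 1, Dpysl3, higher in sciatic nerve. Ina, another neurofilament protein, was listed for dorsal root alone at 81.5, 64.8 and 57.6 CPM. Kif5a (chromosome 10, 127225696 to 127263348), the motor precipitated in the study, had 7.48, 9.38 and 19.5 CPM against 53.0, 46.6 and 50.5 CPM, 4.12-fold (log2 -2.04, SE 0.38, adjusted p = 0.0192). Kif5a was called without sciatic nerve replicate 3 and not without any of the other 5 libraries (adjusted p = 0.0707 to 0.103).

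Homeobox genes, whose expression keeps a record of position along the body, gave 4 higher in dorsal root and 0 in sciatic nerve of 23 Hox genes tested, and 18 of the 23 had a negative log2 fold change. Over all genes tested, 54.4% had a positive one. Hoxb9 (chromosome 11, 96271457 to 96276595) had 2.64, 1.33 and 0.847 CPM in sciatic nerve and 38.6, 29.2 and 17.6 CPM in dorsal root, 17.6-fold (log2 -4.14, SE 0.52, adjusted p = 0.00238), and held. Hoxb7, Hoxb5 and Hoxd10 were 3.61-fold, 4.87-fold and 6.53-fold higher in dorsal root (adjusted p = 0.0107, 0.0247 and 0.0379), and none of these 3 held. The count of Hox calls was 2, 4, 10, 2, 1 and 2 when sciatic nerve replicates 1 to 3 and then dorsal root replicates 1 to 3 were left out, and the 10 without sciatic nerve replicate 3 were all higher in dorsal root. Split by cluster after these values were seen, all 5 Hoxb genes tested had a negative log2 fold change, from -4.14 to -1.41, as did all 4 Hoxd genes, 7 of 8 Hoxa genes and 2 of 6 Hoxc genes. Hoxc10, active at lumbar levels, had 60.9, 64.6 and 31.6 CPM against 53.3, 49.8 and 37.4 CPM (adjusted p = 0.91). The groups of Hoxc10 overlapped.

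**Figure D4:**
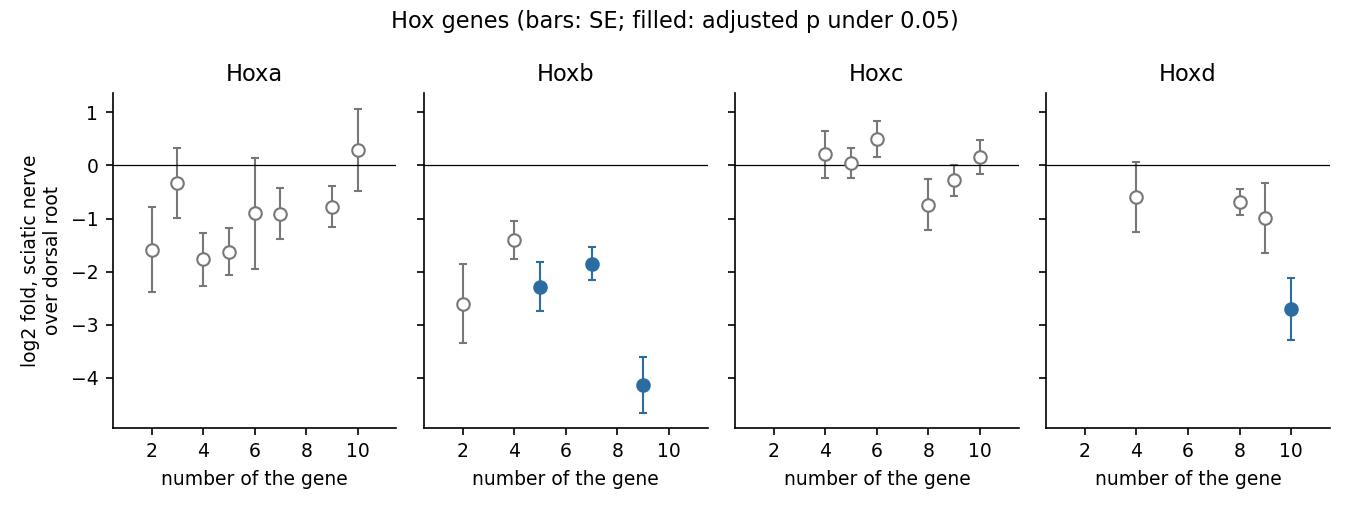
Log2 fold change of sciatic nerve over dorsal root (vertical) for the 23 Hox genes tested, in 1 panel for each cluster, against the number of the gene within the cluster (horizontal). Bars are the SE of the fit, and filled points are the 4 called genes. All 5 Hoxb genes lie below 0, while the 6 Hoxc genes lie between -0.74 and 0.49.

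Regional transcription factors gave calls in sciatic nerve, with 3 higher in sciatic nerve and 0 in dorsal root of 14 tested. There were 7 calls without sciatic nerve replicate 3, 6 higher in sciatic nerve and Tbx2 higher in dorsal root, and 1 without each of the other 5 libraries. Tbx15 (chromosome 3, 99240381 to 99354259), a factor of limb and trunk mesenchyme, had 72.2, 60.7 and 27.4 CPM against 2.14, 4.25 and 0.840 CPM, 22.1-fold (log2 4.46, SE 0.62, adjusted p = 0.00396), and held. Pax9 and Prrx1, also of limb mesenchyme, were 6.70-fold and 2.76-fold higher (adjusted p = 0.0325 and 0.0404) and were called without sciatic nerve replicate 3 but not without any of the other 5 libraries (adjusted p = 0.0981 to 0.182 for Pax9 and 0.14 to 0.197 for Prrx1). Hoxc11 was listed for sciatic nerve alone at 9.28, 14.3 and 4.87 CPM, and so were Pitx1, the hindlimb factor, at 1.86, 1.88 and 2.01 CPM and Tbx5 at 1.07, 0.626 and 1.01 CPM. In all, 5 members of the regional list were listed for sciatic nerve alone, also Meis2, En1 and Shox2, and 8 for dorsal root alone, namely Zic1, Zic2, Zic4, Meis1, Irx5, Lmx1b, Msx2 and Eya1. Hoxb3, Hoxb6, Hoxb8 and Hoxd11 were listed for dorsal root alone, each with a mean between 1.03 and 1.37 CPM.

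Schwann cells and macrophages, which both tissues hold, gave few or no calls. Of 16 genes of myelinating Schwann cells none was called by edgeR or limma-voom, 2 each were by DESeq2 and with the replicate block and 3 had an unadjusted p under 0.05, with a median log2 fold change of -0.42. Mag, an adhesion protein at the inner face of myelin, had 58.5, 76.5 and 229 CPM against 234, 196 and 314 CPM (adjusted p = 0.392, and 0.049 with the replicate block). Here the result turned on a single library. In sciatic nerve replicate 3 Mag lay within the range of the dorsal root libraries, and without that library 10 of the 16 genes were called, all higher in dorsal root, with a median of -0.76. Of 14 macrophage genes none was called by edgeR, DESeq2 or limma-voom and 3 had an unadjusted p under 0.05. C1qa, a chain of complement C1q, had 161, 159 and 243 CPM against 203, 208 and 231 CPM (adjusted p = 0.839). Without sciatic nerve replicate 3, 3 of the 14 were called, namely Aif1, Lyve1 and Mrc1, all higher in sciatic nerve. That is near the share over all genes in that fit, 2538 of 12330. Neither list can be said to be at like levels in the 2 tissues.

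Among 8 microglial genes 1 was called, higher in dorsal root, and 4 without sciatic nerve replicate 3, 2 in each direction. For this and the lists that follow, the share over all genes tested was 4.12%, or 2538 of 12330 without that library. Sall1, a transcription factor of microglia, had 1.69, 0.469 and 1.32 CPM against 21.998, 25.6 and 21.7 CPM, 19.4-fold (log2 -4.28, SE 0.48, adjusted p = 0.00115), and held. The defining genes Tmem119 and P2ry12 did not pass: Tmem119 had 35.3, 33.3 and 23.8 CPM against 34.98, 34.8 and 30.2 CPM and P2ry12 1.801, 4.61 and 0.583 CPM against 2.44, 3.57 and 3.06 CPM. The endothelial list gave 1 call of 10 tested, and 4 without sciatic nerve replicate 3, 2 in each direction. The gene called was Plvap, a protein of the openings in fenestrated capillaries, 3.11-fold higher in sciatic nerve (adjusted p = 0.0404), which was called without sciatic nerve replicate 3 and not without any of the other 5 libraries (adjusted p = 0.101 to 0.225). Immediate early and stress genes gave 0 calls of 21 with edgeR, 2 with DESeq2 and 5 at an unadjusted p under 0.05, and circadian genes 0, 0 and 3 of 15. With the replicate block the counts were 3 and 1, and without sciatic nerve replicate 3 they were 7 (5 higher in sciatic nerve) and 3 (2 higher in sciatic nerve).

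At the level of transcripts, 467 of 15607 were called (2.99%), 263 higher in sciatic nerve and 204 in dorsal root. No gene had transcripts called in opposite directions. Pvalb, a calcium-binding protein of fast muscle and of proprioceptive sensory neurons, came nearest, and was picked with its values in view. Its transcript ENSMUST00000120592 had 24.3, 29.01 and 18.2 CPM in sciatic nerve and 2.90, 1.53 and 1.02 CPM in dorsal root (log2 3.70, SE 0.46, adjusted p = 0.00226), while ENSMUST00000005860 had 7.48, 4.46 and 13.2 CPM against 26.02, 28.5 and 26.8 CPM (log2 -1.69, SE 0.41, adjusted p = 0.0682). Summed over both, Pvalb had 31.8, 33.5 and 31.4 CPM against 28.9, 30.005 and 27.8 CPM. The summed levels lay close together while the transcripts leaned opposite ways.

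A transcript listed for a single tissue has no value in the other, so its level is a description and no difference was computed. The sciatic nerve table held 1952 such transcripts, 10.4% of its named transcripts, and that of dorsal root had 4046, or 19.3%. With counts scaled by the TMM factors, they carried 0.148% to 0.206% of the input of sciatic nerve and 0.5% to 0.653% of that of dorsal root. Without that scaling, transcripts listed for both tissues held 99.79% to 99.86% of the named input counts of sciatic nerve. In dorsal root they held 99.36% to 99.49%. At a mean of at least 10 CPM in the input, 11 remained in sciatic nerve and 74 in dorsal root. The smallest sum over the 9 libraries of a tissue was 17 counts in both tables. At the gene level 773 genes were listed for sciatic nerve alone and 1997 for dorsal root alone.

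The most abundant transcripts of sciatic nerve alone were those of Cd209g, a lectin of the DC-SIGN family, at 28.02, 28.5 and 102.8 CPM and of Cilp, a matrix protein of cartilage, at 37.9, 46.2 and 12.6 CPM. Replicate 3 was highest for Cd209g and lowest for Cilp. Then came Apol6, Cd209d, the matrix protease Mmp3, the thyrotropin receptor Tshr, which fat cells carry, the cardiac actin Actc1, the pacemaker channel Hcn4 and the esterase Ces1f, with means between 13.1 and 25.8 CPM. For dorsal root alone they were a transcript of Gfap at 166, 116 and 144 CPM, followed by Ermn and Zic1, then Ranbp3l, Chil3, the neurofilament gene Ina, Mog, the neutrophil genes Ltf and Mmp8, and Zic5, with means between 43.9 and 82.2 CPM. Genes of spinal cord interneurons, chosen after their values were seen, also stood there: the glutamate transporter Slc17a6 had 50.4, 37.9 and 30.1 CPM, the peptide Sst 33.4, 21.4 and 13.4 CPM, the GABA enzyme Gad2 22.3, 23.4 and 10.7 CPM and the glycine transporter Slc6a5 9.57, 13.3 and 23.1 CPM. Slc17a6 and Sst are also made by sensory neurons.

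The precipitates offer the same contrast between tissues in libraries that the input fit did not use, though from the same lysates. In a fit of all 18 libraries, 211 of 12681 genes (1.66%) differed between the Kif5A precipitates and 1510 (11.9%) between the IgG precipitates, counts that became 373 and 121 when only the 6 libraries compared were fitted. Of the 285 genes higher in sciatic nerve input, 282 (98.9%) were higher there in the Kif5A precipitates too, against 51.6% of all genes tested, with 119 called (1.11% of all genes were) and 0 called the other way. Of the 218 higher in dorsal root input, 217 (99.5%) were higher there in the Kif5A precipitates, against 48.4% of all genes, with 58 called (0.552% of all genes were) and 0 the other way. With IgG, 276 of 285 (96.8%) and 205 of 218 (94%) kept their direction, against 50% and 49.7% of all genes. Of these, 183 and 116 were called with IgG, where 5.7% and 6.21% of all genes were called in the same directions, beside 2 called the other way, Gm11681 and AI661453, which fall outside the naming rule.

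The named genes kept their direction to unequal degrees. The log2 fold change of Adipoq was 6.26 in input, 8.24 with Kif5A and 8.99 with IgG, and that of Lep 6.37, 9.07 and 8.83. Those of Ptgds were -8.88, -8.62 and -8.25, and those of Snap25 -4.40, -4.08 and -3.19. Among neutrophil genes Camp had -9.93, -7.10 and -6.30 and S100a8 -8.33, -6.85 and -4.36. Elane had -7.81 in input, -4.11 with Kif5A (adjusted p = 0.21) and 0.53 with IgG (adjusted p = 0.83). These differences between kinds of library were not tested.

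**Figure D5:**
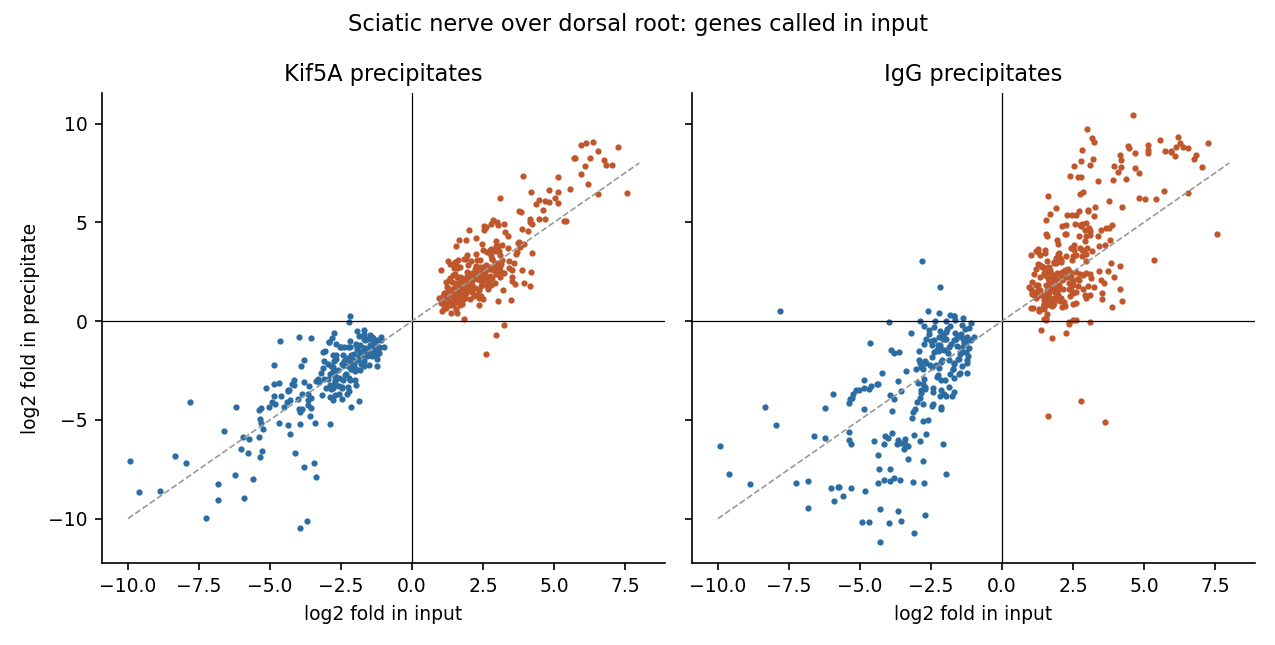
Log2 fold change of sciatic nerve over dorsal root in the Kif5A precipitates (left panel) and the IgG precipitates (right panel), each on the vertical axis, against that in input (horizontal), for the 503 genes called in input. The dashed line marks equal values, and fitted values for genes without counts in 1 tissue depend on the fit's prior count. On the same side of 0 as in input lie 282 of the 285 and 217 of the 218 genes with Kif5A, and 276 and 205 with IgG.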

How the data were processed

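Input RNA of enriched axoplasm was sequenced from 3 pools of 5 C57B6 mice in each tissue, per the labels with a SMART-Seq kit. The authors deposited 1 table of whole-number counts per transcript for each tissue, with 9 libraries in each. Per the submitters' processing notes, CASAVA 1.8.2 and edgeR were used with build mm10 (GRCm38). The aligner, the counting, its use of strand and any filter were not given in the sources used here, so overlapping, antisense and near-identical genes are uncertain. Counts of named transcripts in both tables were summed per gene; rows without a name (0.181% to 0.225% of the input counts) were left out.

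Genes passing filterByExpr were tested with edgeR 4.0.16 (R 4.3.3; TMM factors, quasi-likelihood test on the 6 input libraries, Benjamini-Hochberg adjustment over all genes tested, threshold 0.05). Alternatives used limma 3.58.1, DESeq2 1.42.0, other scalings and filters, and omitted libraries. On data simulated for this comparison over 12157 genes, the test recovered 58 of 100 genes changed 2-fold and 100 of 100 changed 4-fold, with 15 false calls. The simulation gave every gene the same dispersion of 0.05 and changed only genes with higher counts. It held no library that stood apart as sciatic nerve replicate 3 did, so these rates need not apply to the real libraries. The labels say that both tissues came from the same animals. Deviations from the group means correlated at 0.215, 0.111 and 0.359 between libraries with the same replicate number. The replicate numbers were therefore taken to pair the libraries, although sciatic nerve replicate 2 correlated more with dorsal root replicate 1 (0.255). The main test left this pairing out. It entered only as the replicate block, an alternative fit that called 682 genes against 503. Printed values come from the fit without pairing unless another fit is named.

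The contrast, the gene lists and the naming rule were chosen with earlier results of these data known. The rule took up to 15 genes in each direction with the largest fold among called genes with non-overlapping libraries and at least 10 CPM in the higher group, the first 2 members of each list with up to 5 further called members, the 10 most abundant genes of each tissue, and up to 10 transcripts listed for 1 tissue. Not every gene it takes is printed, and some results are not reported here. Chosen outside it after their values were seen were Aif1, C1qa, Cebpa, Cidea, Cxcr2, Dpysl3, Fcer1a, Foxc1, Foxd1, Hdc, Hoxc10, Lpl, Lyve1, Mag, Mrc1, Pvalb, Ret, Slc7a10, Stmn2 and Tnxb, the genes named for a call in a fit that left out a library, and among genes listed for 1 tissue those named for their role. Coordinates are from GENCODE M21 on GRCm38.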

Additional observations from a re-analysis of the deposited data

How the results depend on the processing

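The 503 calls stayed within 1.5 times under RLE size factors (507), library size alone (481), no filter (496), a mean of at least 10 CPM (490), all transcripts of each tissue's own table (542), limma-voom (493) and the replicate block (682). The block kept 495 and lost 8; among the genes named here it changed the calls of Cxcr2, Fads2, Mag and Npy, which it added, and no other. The count was 180 in a fit of all 18 libraries and 1064 with DESeq2. Leaving out 1 library gave 220 to 2538 genes, 70 to 246 called list members instead of 111, and 203 to 2592 transcripts instead of 467. Leaving out both libraries of replicate 1, 2 or 3 gave 132, 160 and 3517 genes. The 18-library fit lost the call of 34 named genes, and the cause was not tested. Among those said to hold, it lost Nefl, Tubb3, Tubb4a, Lamc3, Bcan, Dgat2, Mylpf, Aldoc, Acta2, Bmp6, Clec3b, Pcolce2 and Crabp2. Leaving out both libraries of replicate 1 lost the call of 38 named genes, and of replicate 2 that of 32. Col1a1, Col5a1, Col5a3 and Slc6a13, which hold, were lost in both of these fits.

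Transcripts listed for 1 tissue numbered 489 at a mean of at least 1 CPM and 11 at 10 CPM in sciatic nerve, and 1194 and 74 in dorsal root. The precipitate counts, 211 with Kif5A and 1510 with IgG, became 373 and 121 when only 6 libraries were fitted.

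Signs turned in these cases when 1 library was left out. The median log2 fold change ranged over -0.0035 to 0.44 for non-myelinating Schwann cell genes, -0.048 to 0.49 for microglia, -0.25 to 0.039 for kinesin and dynein motors, -0.31 to 0.077 for node of Ranvier and adhesion genes, -0.49 to 0.48 for nuclear-retained RNA and -0.040 to 0.26 for injury-response Schwann cell genes. The log2 fold change ranged over -0.027 to 0.66 for Cidea, -0.060 to 0.42 for Hoxc10, -0.37 to 0.96 for Malat1, -1.39 to 0.072 for P2ry12, -2.96 to 0.46 for Scx and -0.27 to 0.043 for Tmem119, none of them called in the full fit. Leaving out both libraries of a replicate gave -0.37 for Malat1 (replicate 2) and 0.044 for P2ry12 (replicate 3), and for Scx 0.58, 0.38 and -3.12 (replicates 1, 2 and 3).

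With 3 pools in each tissue, the count of calls moved most with sciatic nerve replicate 3. Low sciatic nerve levels rest on few counts, for example 14 for Camp and 21 for Ptgds over the 3 libraries.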
